A study of Mus musculus with 31 samples.

Results

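The clustered protocadherins are cell-surface cadherins encoded in the alpha, beta and gamma gene clusters, which lie side by side in the mouse genome. They were followed here in 31 libraries that each hold the RNA of 1 brainstem cell. Members were taken by gene symbol from the authors' normalized table and matched by gene identifier to the raw counts, which gave 47 isoforms among 55421 mouse genes: 13 of the alpha, 15 of the beta and 19 of the gamma cluster. The annotation lists 58 family genes. The 11 that the authors' normalized table leaves out (Pcdha4, Pcdhb1, Pcdhb2, Pcdhb3, Pcdhb4, Pcdhb5, Pcdhb8, Pcdhb11, Pcdhgb2, Pcdhga10 and Pcdhgb8) had 0 to 16 reads each and 66 reads in all. The 47 are thus the part of the family that this table keeps. Reads alone do not separate the sets, since Pcdhga8 with 11 reads is kept and Pcdhb5 with 16 is not. How the table's genes were chosen was not tested.

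Each isoform of the family begins with its own variable exon, which has its own promoter and encodes the whole extracellular part of the protein. In the alpha and gamma clusters that exon is spliced to constant exons shared by every isoform of the cluster, while beta genes have no constant exon. A neuron is known to switch on only some of these promoters, largely at random for the alternate isoforms and more regularly for the C-type isoforms at the cluster ends. The proteins bind the same isoform set on a facing membrane, through which neurites of a cell recognise and avoid each other.

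The cells were neurons of the olivocochlear system, which sends axons from the brainstem to the cochlea. The animals were labelled wild-type and, in the series description, carried ChAT-IRES-Cre and a Cre-dependent tdTomato reporter, so that cholinergic cells were red. Red cells of the lateral superior olive formed the LOC group (lateral olivocochlear, 18 cells), and those in the trapezoid body's ventral nucleus the MOC group (medial olivocochlear, 13 cells). Cytoplasm was drawn into the patch pipette after recording in acute slices, amplified by the SmartSEQ2 protocol and sequenced as 75 bp paired reads. The sources used here do not give the age or number of the animals. Because the labels tie no cell to an animal, each group counts as 1 sample: values are given with the spread over cells, and no test between LOC and MOC was made.

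Total counts ran from 356412 to 1404896 in LOC (median 768815) and from 598028 to 2627174 in MOC (median 906622), so 3 counts, the most that a count of 0 allows, are 2.14 to 8.42 CPM (counts divided by the library total and scaled to 1000000) in a LOC cell and 1.14 to 5.02 CPM in a MOC cell. Reads of the cholinergic genes Chat, Slc18a3 and Slc5a7 together were under 10 in 4 LOC cells (7, 9, 14 and 16) and 5 MOC cells (4, 8, 9, 12 and 13), and were 0 in LOC cells 14 and 16 and MOC cell 8, which goes against the label of those libraries. RNA of other cell types was present in most libraries. The 10 oligodendrocyte markers summed to 22.7 to 238537 CPM in LOC and 363 to 123302 CPM in MOC, the 9 astrocyte markers to 1233 to 8868 and 609 to 7918 CPM, the 10 microglial markers to 31.1 to 2031 and 40.7 to 9480 CPM, and the 8 vascular markers to 0 to 110 and 0.754 to 145 CPM. The 4 inhibitory neuron markers summed to 0 to 949 CPM in LOC and 10.1 to 2990 CPM in MOC. The serotonergic genes Tph2, Slc6a4 and Fev summed to 0 to 70.1 CPM in LOC and 0 to 41.8 CPM in MOC. LOC cell 7 had 15 reads of Tph2, 1 of Slc6a4 and 9 of Fev. In the same order, MOC cell 4 had 2, 2 and 22, and MOC cell 12 had 3, 15 and 1. These libraries had under 10 cholinergic reads. Others with under 10, such as LOC cell 14 and MOC cell 13, had 0 of each gene. Libraries with more cholinergic reads had such reads too: 8, 1 and 2 in MOC cell 6 (206 cholinergic reads), 1, 1 and 7 in LOC cell 3 (1355), and 0, 4 and 6 in LOC cell 6 (28). Every marker of these lists had a read in both groups, and the share of the protocadherin reads that came from other cells was not tested.

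The clusters lie on the plus strand of chromosome 18 (GRCm38), at 36930184 to 37187661 for alpha, 37264938 to 37524479 for beta and 37661793 to 37841873 for gamma. In the annotation, 2860 exon bases of an alpha isoform and 2116 to 2119 of a gamma isoform are constant and shared. The bases that belong to 1 isoform alone made up a median 46.4% of an alpha isoform's exons, 54.7% of a gamma isoform's and 100% of a beta gene's. A read in a constant exon cannot be given to an isoform, and the sources used here do not say how such reads were counted. All 57 family genes with bases of their own had at least 3 reads, while 4 genes without any (Pcdhga10, Gm42416, Gm37013 and Gm37388) had 0. Not all other annotated genes over the clusters were checked in this way. Pcdha4, with 404 bases of its own because Gm42416 overlaps it, had 3 reads.

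The libraries were not stranded, so reads of an isoform and of an antisense gene over its exons cannot be told apart. Such genes lie over Pcdhgb7, Pcdhga11 and Pcdhga12 (Gm26672, 63 reads), Pcdhgc3 (BC037039, 28 reads), Pcdhb12 (Gm37446, 90 reads) and Pcdha11 and Pcdha12 (Gm10545, 3 reads).

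The 47 isoforms took 4701 reads, which is 0.0169% of all counts. Isoforms had 11 to 443 reads each over the 31 cells (median 64) and were read in 3 to 26 cells. Of the 1457 combinations of an isoform and a cell, 395 (27.1%) had a read. In 147 of these (37.2%) the evidence was 1 read, while 80 (20.3%) had at least 10 reads and held 82.4% of the reads. The reads of the family were thus concentrated in few combinations, with a long tail of combinations at 1 or a few reads. In what follows an isoform with at least 10 reads in a cell is said to be held by that cell.

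**Figure D1:**
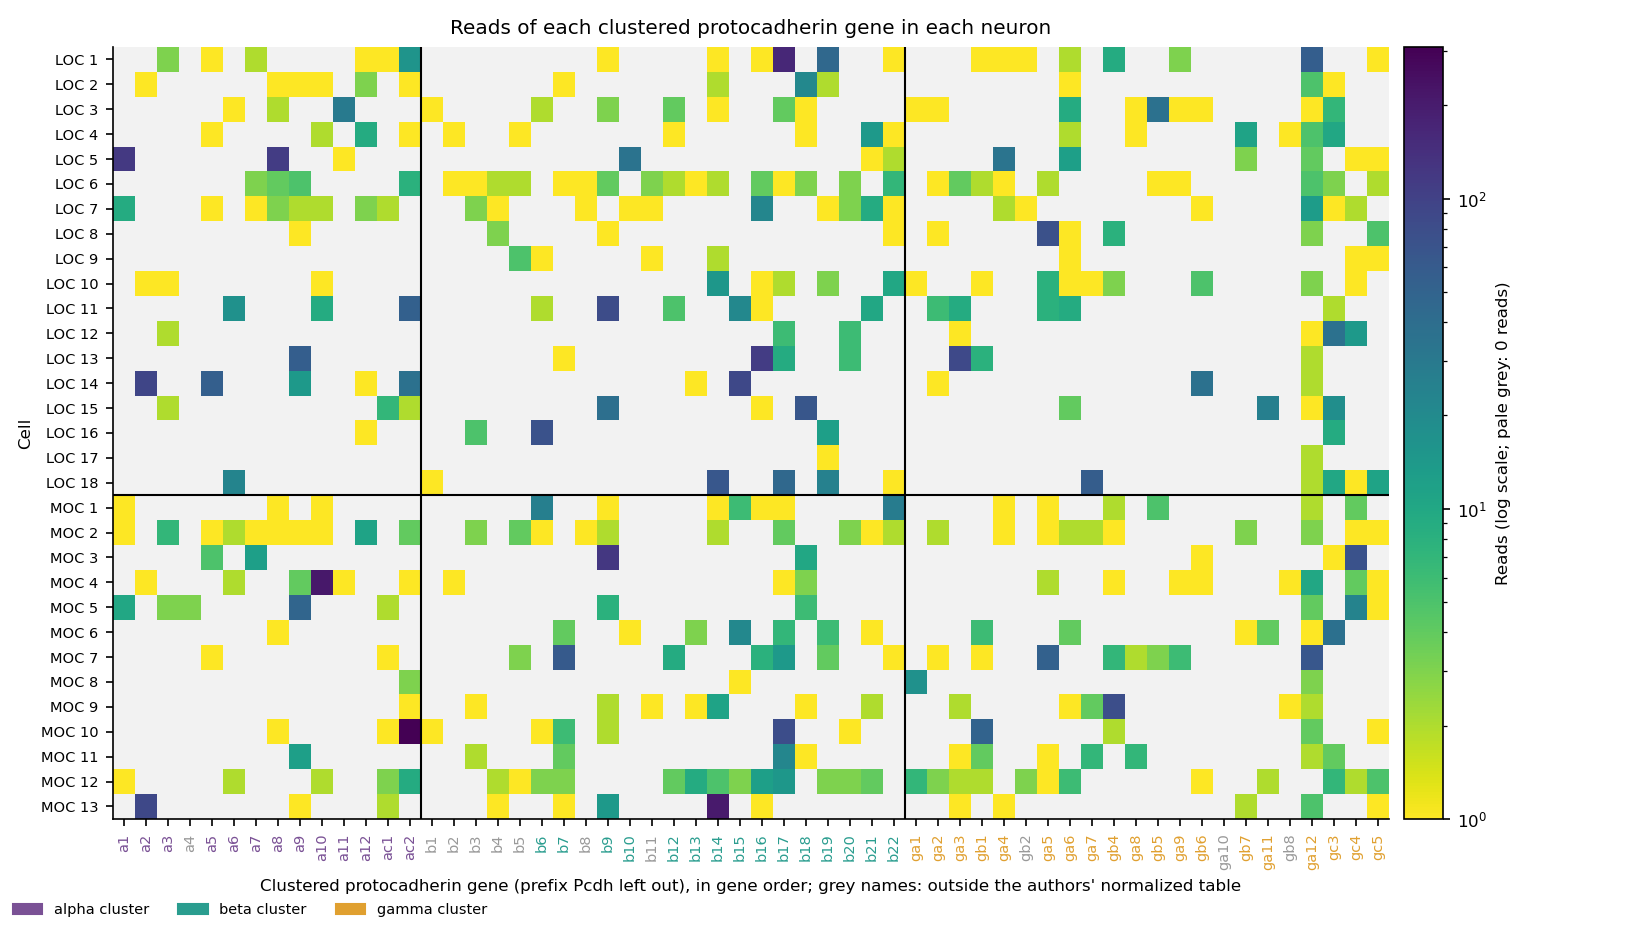
Reads of each of the 58 family genes (horizontal axis, in gene order, those outside the authors' normalized table in grey) in each cell (vertical axis, LOC then MOC), with colour giving the reads. High counts are scattered, with few in the same line or column, and most of the entries have no read.

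LOC cells had 11.9 ± 5.86 isoforms with at least 1 read (mean ± SD over 18 cells), from 2 to 24 with a median of 11. MOC cells had 13.9 ± 6.75 (13 cells), from 4 to 27 with a median of 12. The group means lay closer than the spread over cells, and the ranges overlapped over most of their length. When each cell was thinned to 350000 counts, which left out no cell, the means were 8.89 ± 4.78 and 9.47 ± 4.76. With at least 3 reads required, LOC cells had 5.67 ± 3.11 and MOC cells 6.77 ± 3.98 isoforms, or 4.14 and 3.45 after thinning, so the order of the groups changed.

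LOC cells held 2.72 ± 2.08 isoforms at 10 or more reads (0 to 7) and MOC cells 2.38 ± 0.961 (1 to 4), with a median of 2 in both. After thinning the means were 1.71 and 1.13. Over all 31 cells, 3 held none (LOC cells 6, 9 and 17), 4 held 1, 11 held 2, 5 held 3, 4 held 4, 2 held 5, 1 held 6 and 1 held 7. Only LOC cells held more than 4.

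The number of isoforms with at least 1 read varied together with the breadth of the library. Over 31 cells it had a Pearson r of 0.94 and a Spearman rho of 0.93 with the number of genes with a read, and rho was 0.91 within LOC and 0.91 within MOC. Without MOC cells 2 and 12, the libraries farthest from the median, r was 0.92. Its r with total counts was -0.01. Both counts come from the same library, so this is a description of the libraries. The number held at 10 or more reads had r of -0.15 with genes read and 0.71 with the cell's reads in the family (rho 0.79; r 0.75 without LOC cell 14 and MOC cell 10). The summed vascular markers moved with the number at 1 read as well (r 0.41, rho 0.58; r 0.76 without LOC cell 10 and MOC cell 8), and their part in it was not tested. The number held at 10 reads was lower where astrocyte markers (r -0.41, rho -0.44) and oligodendrocyte markers (r -0.39, rho -0.39) were higher. Within LOC rho was -0.67 and -0.63, within MOC 0.01 and 0.03, and r was -0.47 for astrocyte markers without LOC cell 2 and MOC cell 7 and -0.22 for oligodendrocyte markers without LOC cells 2 and 17. It was higher where cholinergic CPM was higher (r 0.39, rho 0.39; r 0.40 without LOC cell 15 and MOC cell 5), and the part of these in the number was not tested either.

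**Figure D2:**
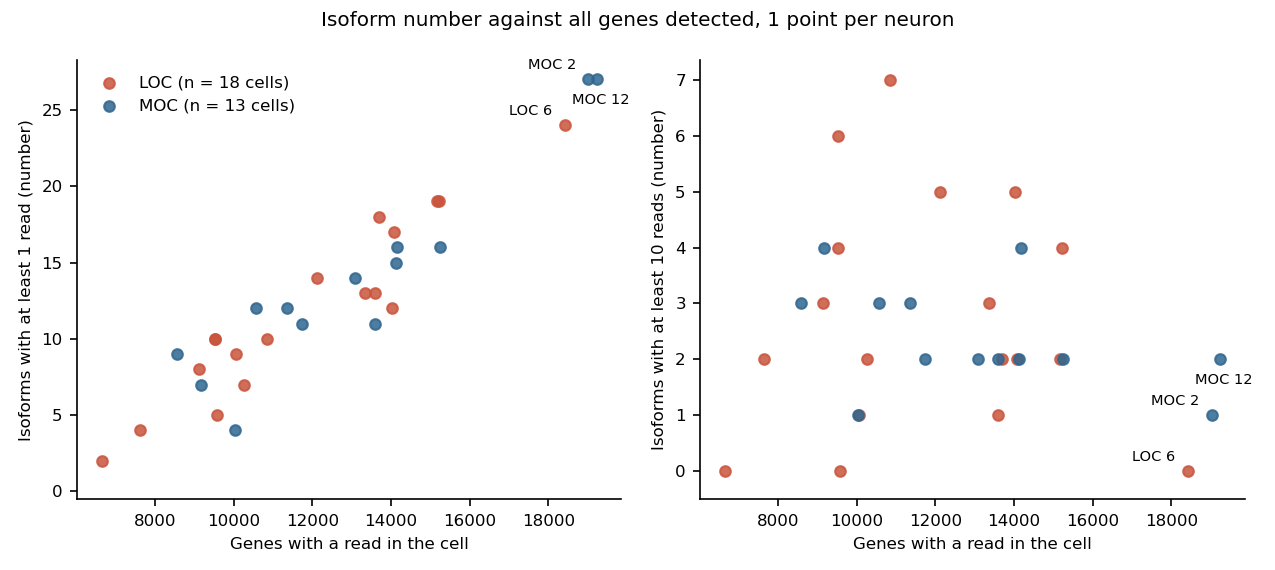
Number of isoforms in a cell (vertical axes) against genes with a read (horizontal axes), 1 point a cell, LOC and MOC in different colours. At 1 read the points rise together with r of 0.94, and at 10 reads they do not, with LOC cell 6 and MOC cells 2 and 12 among the broadest libraries and holding 0, 1 and 2 isoforms.

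The cells with the most isoforms at 1 read were those with the broadest libraries and no dominant isoform. LOC cell 6 (24 isoforms, 18414 genes read), MOC cell 2 (27 isoforms, 19019 genes) and MOC cell 12 (27 isoforms, 19231 genes) held 0, 1 and 2 isoforms at 10 reads. Their effective number of isoforms, the inverse of the summed squared read shares, was 16.9, 14.2 and 16.9, against medians of 4.34 in LOC and 3.61 in MOC. At the other end, LOC cell 17 had 6654 genes with a read, 3 protocadherin reads and 238537 CPM of oligodendrocyte markers, the highest of the 31 libraries.

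Which isoforms a cell held differed from cell to cell. In LOC cell 1 the held isoforms were Pcdhb17 (163 reads), Pcdhga12 (55), Pcdhb19 (44) and Pcdhac2 (16). LOC cell 5 held Pcdha1 (120), Pcdha8 (110), Pcdhb10 (35), Pcdhga4 (34) and Pcdhga6 (12). LOC cell 11 held Pcdhb9 (82), Pcdhac2 (53), Pcdhb15 (21), Pcdha6 (17) and Pcdhb21 (10). Each of these 3 sets drew on the alpha, beta and gamma clusters or on a pair of them, and only Pcdhac2 recurred.

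LOC cell 13 held Pcdhb16 (111), Pcdhga3 (86) and Pcdha9 (56), 1 isoform from each cluster. LOC cell 14 held Pcdha2 (93), Pcdhb15 (88), Pcdha5 (54), Pcdhac2 (36), Pcdhgb6 (36) and Pcdha9 (14). LOC cell 18 held Pcdhb14 (65), Pcdhga7 (57), Pcdhb17 (44), Pcdhb19 (25), Pcdha6 (23), Pcdhgc5 (11) and Pcdhgc3 (10). LOC cell 14 was the LOC cell with the most reads of the family, 326, and also had 0 cholinergic reads and the lowest oligodendrocyte marker sum, 22.7 CPM.

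LOC cell 15 held Pcdhb18 (67), Pcdhb9 (38), Pcdhga11 (26) and Pcdhgc3 (18). LOC cell 4 held Pcdhb21 (14), Pcdhgb7 (11) and Pcdhgc3 (10). LOC cell 3 held Pcdhgb5 (36) and Pcdha11 (29). The other LOC cells held 1 or 2 isoforms, apart from the 3 that held none. Those with 2 were LOC cell 7 with Pcdhb16 (22) and Pcdhga12 (13), LOC cell 10 with Pcdhb14 (15) and Pcdhb22 (10), LOC cell 12 with Pcdhgc3 (36) and Pcdhgc4 (14), and LOC cell 16 with Pcdhb6 (72) and Pcdhb19 (12). LOC cell 2 held Pcdhb18 (21), and LOC cell 8 held Pcdhga5 (75).

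Among the MOC cells, cell 3 held Pcdhb9 (123), Pcdhgc4 (73), Pcdha7 (12) and Pcdhb18 (10). MOC cell 7, the most deeply sequenced library, held Pcdhga12 (65), Pcdhb7 (61), Pcdhga5 (52) and Pcdhb17 (14). MOC cell 10 held Pcdhac2 (308), Pcdhb17 (80) and Pcdhgb1 (50). The 308 reads of Pcdhac2 were the highest count of any isoform in any cell.

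MOC cell 13 held Pcdhb14 (205), Pcdha2 (89) and Pcdhb9 (14), and MOC cell 5 held Pcdha9 (48), Pcdhgc4 (24) and Pcdha1 (10). MOC cell 4 held Pcdha10 (215) and Pcdhga12 (10). MOC cell 9 held Pcdhgb4 (78) and Pcdhb14 (11), and MOC cell 6 held Pcdhgc3 (37) and Pcdhb15 (21). In MOC cells 4 and 9 a single alternate isoform made up most of the family's reads.

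MOC cell 1 held Pcdhb22 (28) and Pcdhb6 (26), MOC cell 11 held Pcdhb17 (22) and Pcdha9 (12), and MOC cell 12 held Pcdhb17 (15) and Pcdhb16 (12). MOC cell 2 held Pcdha12 (11) and MOC cell 8 held Pcdhga1 (17). Of the 28 cells that held an isoform, each had a set of its own, which was not computed for sets of other genes.

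Counted by cluster, 17 cells held no alpha isoform, 10 held 1, 3 held 2 and 1 held 4. For the beta cluster 10 cells held none, 10 held 1, 9 held 2 and 2 held 3. For the gamma cluster 12 cells held none, 13 held 1, 5 held 2 and 1 held 3. Isoforms of all 3 clusters were held together by 7 cells.

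The most read isoform took a median 36.0% of a LOC cell's reads in the family (16 cells with at least 20 such reads, 11.4% to 78.1%) and 45.3% of a MOC cell's (13 cells, 12.6% to 86.7%). It took more than 50% in 11 of these 29 cells. MOC cell 4 was the most concentrated, with an effective number of 1.33 and 86.7% of its 248 reads in Pcdha10. LOC cell 8 came next, with 78.1% of its 96 reads in Pcdhga5. LOC cell 6 was the least concentrated, with 11.4% of its 70 reads in Pcdhac2. Over libraries with at least 10 cholinergic reads the median was 37.0% in LOC and 36.1% in MOC, so the groups lay close to each other without the libraries that had few cholinergic reads.

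**Figure D3:**
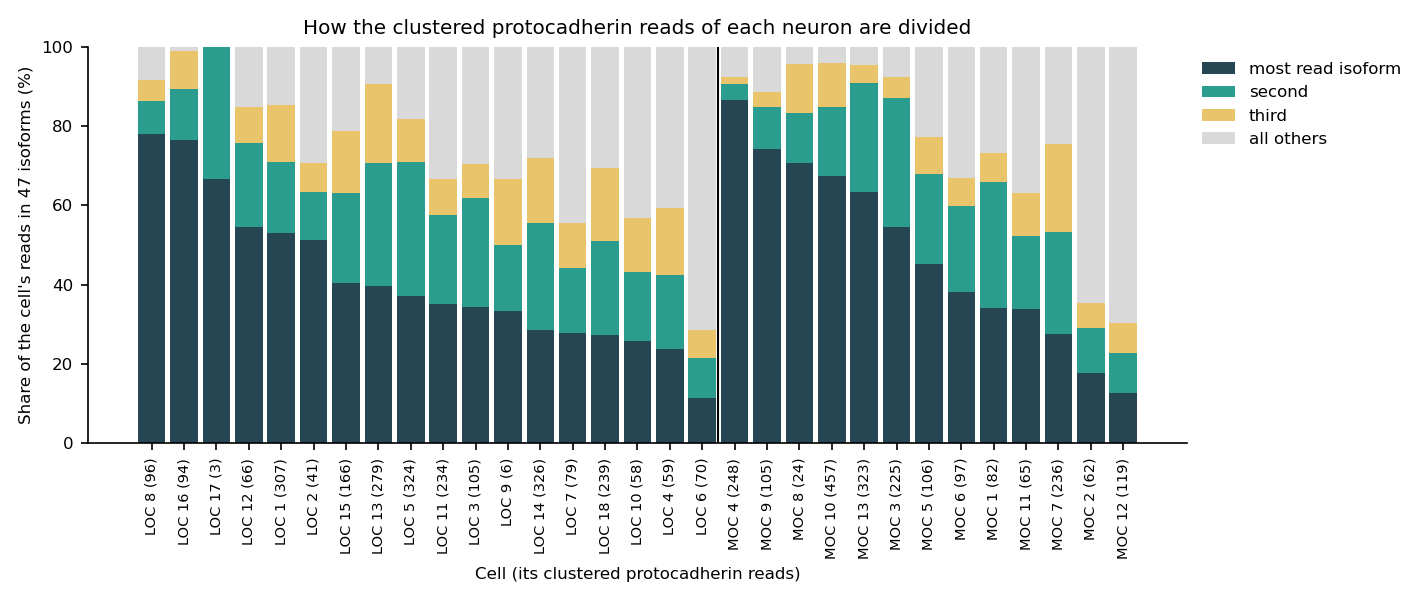
Share of a cell's clustered protocadherin reads (vertical axis, percent) taken by its most read isoform (lowest segment), by the next isoforms in rank and by all others, for each of the 31 cells (horizontal axis, with its reads in brackets), ordered by the leading share within LOC and MOC. The leading share runs from 11.4% in LOC cell 6 to 86.7% in MOC cell 4, and LOC cells 9 and 17, with 6 and 3 reads, are too shallow to read.

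The leading place was taken by 20 isoforms over the 29 cells, and 13 of them led 1 cell. Pcdhb17 led LOC cell 1 and MOC cells 11 and 12, and Pcdhb14 led LOC cells 10 and 18 and MOC cell 13. Pcdhac2, Pcdhgc3 and Pcdhb9 each led 1 LOC and 1 MOC cell. Pcdhb16 and Pcdhb18 each led a pair of LOC cells. The leaders of 1 cell were 5 alpha isoforms (Pcdha1, Pcdha2, Pcdha9, Pcdha10, Pcdha12), 3 beta isoforms (Pcdhb6, Pcdhb21, Pcdhb22) and 5 gamma isoforms (Pcdhga1, Pcdhga5, Pcdhga12, Pcdhgb4, Pcdhgb5).

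Sets were compared over the 465 pairs of cells by the Jaccard index, the isoforms that both cells had divided by the isoforms that either had. At 1 read the index was 0.17 ± 0.087 for pairs of LOC cells, 0.18 ± 0.084 for pairs of MOC cells and 0.18 ± 0.095 for pairs of a LOC and a MOC cell. At 3 reads it was 0.073, 0.10 and 0.089, and at 10 reads 0.022, 0.031 and 0.037. The differences between these kinds of pairs were smaller than the spread over pairs at each minimum, and their order changed with the minimum. Pairs share cells and so are not independent, and cells without an isoform gave no value with each other.

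At 10 reads 393 pairs shared no isoform, 67 shared 1 and 5 shared 2. LOC cell 1 was in 3 of those 5 pairs: with LOC cell 18 (Pcdhb17 and Pcdhb19), MOC cell 7 (Pcdhb17 and Pcdhga12) and MOC cell 10 (Pcdhac2 and Pcdhb17). The others were LOC cells 11 and 14 (Pcdhac2 and Pcdhb15) and LOC cell 15 with MOC cell 3 (Pcdhb9 and Pcdhb18). Of the 5 pairs, 3 joined a LOC with a MOC cell. The median cell held 2 of the 47 isoforms, so few could be shared. Sharing between cells was not computed for other genes with as many reads, so it is no result about the family.

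Seen from the isoforms, 8 were held by no cell (Pcdha3, Pcdhac1, Pcdhb12, Pcdhb13, Pcdhb20, Pcdhga2, Pcdhga8 and Pcdhga9), 20 by 1 cell and 19 by more. Of the 39 held isoforms, 16 were held in both groups, 16 in LOC cells alone and 7 in MOC cells alone, with 18 LOC and 13 MOC cells to be found in. The 20 isoforms held by 1 cell can only fall in 1 group. The same split was not computed for other genes, so it is no result about the family. All 47 had a read in both groups. The median isoform was read in 8 cells, and 60.0% of its reads came from a single cell. In 29 of 47 isoforms (61.7%) a single cell gave more than 50% of the reads.

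The same was computed over genes of the authors' table with as many reads in all, 11 to 443. These 11747 genes were read in a median of 10 cells, 47.4% of the reads came from the top cell, and 45.9% of the genes had more than 50% from it. The 21 non-clustered protocadherins and related cadherins, which had more reads (70 to 14239), were read in a median of 23 cells with 21% from the top cell, and 4 of 21 (19.0%) had more than 50% from it. At 10 or more reads the median was 1 cell for the 47 isoforms, 1 for the 11747 genes and 7 for the 21 non-clustered and related genes. These are descriptions of these 31 libraries, and the difference between the sets of genes was not tested.

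The C-type isoforms, which sit at the ends of the alpha and gamma clusters and are known for a more regular use than the alternate isoforms, were read in 8 to 14 of 31 cells (median 12, 5 isoforms). The 27 alternate alpha and gamma isoforms were read in 3 to 26 cells (median 7), and the 15 beta isoforms in 3 to 15 (median 9). No C-type isoform was read in every cell, and 2 of the 31 cells had no read of any. Among the 29 cells with at least 20 reads, the C-type isoforms together took a median 7.94% of a LOC cell's reads in the family (0% to 75.8%) and 9.68% of a MOC cell's (0.424% to 67.8%).

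Pcdhgc3 was read in 14 cells (45.2%), 10 LOC and 4 MOC. It had 36 reads in LOC cell 12, 18 in LOC cell 15, 10 in each of LOC cells 4 and 18, 37 in MOC cell 6 and 1 to 9 in the others. No other isoform but Pcdhb17 was held by as many cells, 5. Its summed level was 6.80 CPM in LOC (exact 95% Poisson interval 5.52 to 8.30) against 3.59 CPM in MOC (2.66 to 4.75), and its mean log2(CPM + 1) was 1.78 ± 1.95 and 0.93 ± 1.77. MOC cell 6 gave 75.5% of the MOC reads. All such intervals cover counting error only, since PCR copies were not told apart.

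Pcdhgc4, the gamma isoform known to be needed for the survival of many neurons, was read in 12 cells, 6 of each group. It had 73 reads in MOC cell 3, 24 in MOC cell 5, 14 in LOC cell 12 and 1 to 4 in the other 9. Its summed level was 1.40 CPM in LOC (0.857 to 2.17) against 7.92 CPM in MOC (6.50 to 9.56), and the mean log2(CPM + 1) was 0.67 ± 1.22 and 1.48 ± 2.08. The difference of means, -0.81, was smaller than the spread over cells and short of the size rule explained further on. Among libraries with at least 10 cholinergic reads the levels were 1.39 and 11.3 CPM and the difference -1.27, which met that rule as higher in MOC. In those libraries 6.9% of all measured genes met it in MOC and 8.47% in LOC. Over all cells, leaving out LOC cell 12 alone brought the difference to -1.03, which met the rule. Pcdhgc3, with a difference of 0.85, met it the other way, as higher in LOC, when MOC cell 6 or MOC cell 12 was left out.

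Pcdhgc5 was read in 12 cells too, 6 of each group, with 11 reads in LOC cell 18, 5 in LOC cell 8, 5 in MOC cell 12 and 1 or 2 in the others. Pcdhac1 was read in 8 cells and held by none, with 7 reads in LOC cell 15 as its highest. Per kilobase of an isoform's own exon bases, over all 31 cells, Pcdhac1 stood at 0.266 CPM and Pcdhgc5 at 0.241 CPM. Pcdhgc4 stood at 1.32 CPM, Pcdhgc3 at 2.87 CPM and Pcdhac2 at 5.24 CPM on the same scale, so the C-type isoforms spanned most of the range of the family.

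Pcdhac2, the alpha isoform known for the spacing of serotonergic axons, had the most reads of the family, 443 over 13 cells, and 69.5% of them were in MOC cell 10. The others with at least 10 reads were LOC cell 11 (53), LOC cell 14 (36) and LOC cell 1 (16), and 9 cells had 1 to 9 reads. MOC cell 10 had 1 read of Tph2, 0 of Slc6a4 and 0 of Fev, the defining serotonergic markers, and 689 reads of the cholinergic genes. The level was 8.21 CPM in LOC (6.79 to 9.83) against 23.9 CPM in MOC (21.4 to 26.6), while the mean log2(CPM + 1) was 1.31 ± 2.12 and 1.42 ± 2.40, which differed by -0.11.

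Pcdhga12 was read in the most cells, 26 of 31 (83.9%), 15 LOC and 11 MOC, and it is an alternate isoform. It had 55 reads in LOC cell 1, 65 in MOC cell 7, 13 in LOC cell 7 and 10 in MOC cell 4, and 1 to 5 in the other 22, with a median of 3 where it was read. Its level was 7.29 CPM in LOC (5.96 to 8.84) against 7.41 CPM in MOC (6.03 to 9.0). The groups overlapped fully, and the median cell stood at 2.72 CPM in LOC against 2.12 CPM in MOC. It was low in most cells and high in 2. Its own exon bases number 4123, in 3 separate stretches of which the longest has 1882. The counts do not tell in which stretch a read fell. The antisense gene Gm26672, read in 6 cells, lies over other exon bases of Pcdhga12, which are not among the 4123.

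Pcdhga12, Pcdhga6 and Pcdhgc3 were the isoforms with a median above 0 in LOC, and Pcdhga12, Pcdhb9 and Pcdhb17 in MOC. For the other isoforms the median cell of the group had no read. Pcdhga6 was read in 14 cells, 10 LOC and 4 MOC, at 12 reads or fewer in each. It was held by LOC cell 5 alone.

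**Figure D4:**
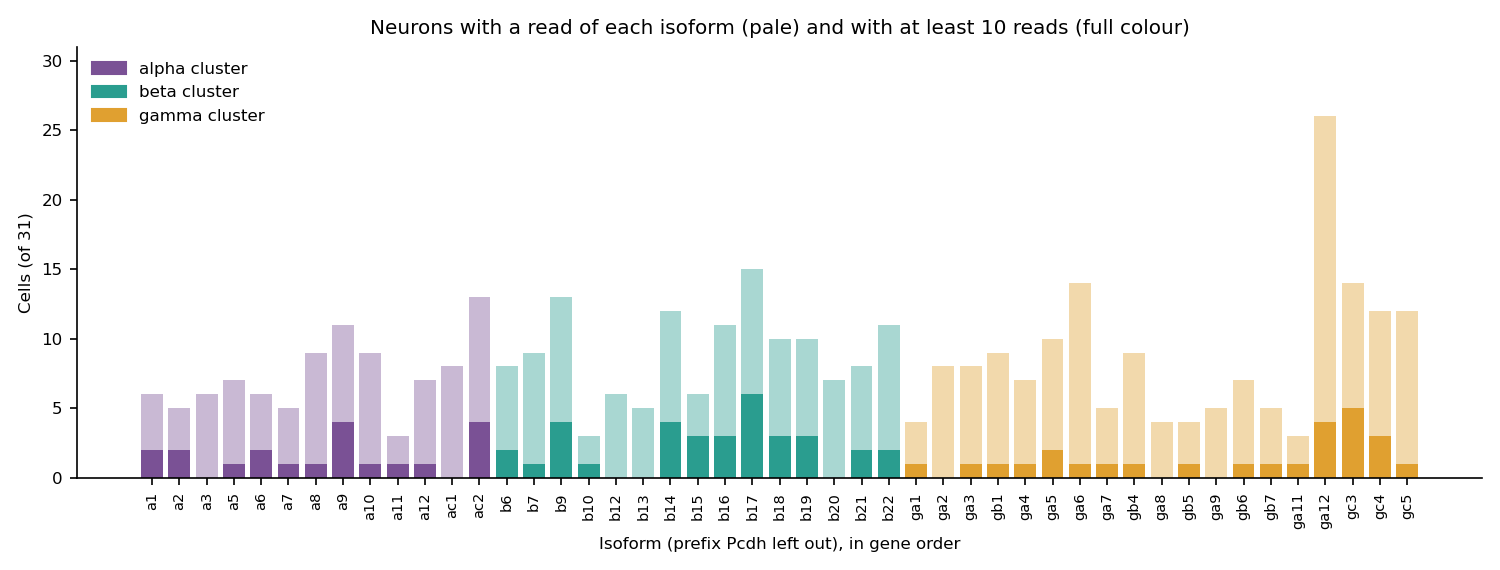
Number of cells with at least 1 read and with at least 10 reads (vertical axis) for each of the 47 isoforms (horizontal axis, in gene order). Pcdhga12 stands out with a read in 26 cells and at least 10 reads in 4, and no isoform reaches 10 reads in more than 6 cells.

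Pcdhb17 was held by the most cells, 6, and read in 15, 7 LOC and 8 MOC. It had 163 reads in LOC cell 1, 44 in LOC cell 18, 80 in MOC cell 10, 22 in MOC cell 11, 15 in MOC cell 12, 14 in MOC cell 7 and 1 to 9 in the rest. The level was 16.1 CPM in LOC (14 to 18.3), 71.2% of it from LOC cell 1, and 10.6 CPM in MOC (8.91 to 12.4). The mean log2(CPM + 1) was 1.45 ± 2.29 and 2.02 ± 2.16, so the summed level and the mean over cells ordered the groups differently.

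Pcdhb9 had 82 reads in LOC cell 11, 38 in LOC cell 15, 123 in MOC cell 3, 14 in MOC cell 13 and 1 to 8 in 9 further cells. Pcdhb14 had 65 in LOC cell 18, 15 in LOC cell 10, 205 in MOC cell 13, 11 in MOC cell 9 and 1 to 5 in 8 further cells. Pcdhb16 had 111 in LOC cell 13, 22 in LOC cell 7, 12 in MOC cell 12 and 1 to 8 in 8 further cells. Each had most of its reads in a few cells. MOC cell 13 held both Pcdhb14 and Pcdhb9, and no other cell held a pair of these 3.

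Within the beta cluster, split by position after the values were seen, the first genes were low but not alone in it. The first 5 beta genes together had 46 reads, or 0.100 CPM per kilobase of own bases, and the other 17 had 1882 reads, or 0.919 CPM per kilobase. Among those 17, Pcdhb8 (3 reads), Pcdhb11 (6 reads) and Pcdhb13 (15 reads) were within the 3 to 16 reads of the first 5. The first 5 are Pcdhb1 to Pcdhb5, and none of them is among the 15 beta members, since the authors' table leaves them out. Each was read in 3 to 6 cells.

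By cluster, alpha summed to 50.8 CPM in LOC (47.2 to 54.7) against 56.8 CPM in MOC (52.9 to 61.0). Over cells the alpha sum ran from 0 in LOC (lowest), through a median of 22.7, to 281 CPM, and in MOC from 0.761 through 12.8 to 360 CPM. LOC cells 9 and 17 were those without an alpha read. The mean log2(CPM + 1) was 4.02 ± 2.45 and 4.19 ± 2.80, a difference (LOC minus MOC) of -0.18, which turned to 0.06 among libraries with at least 10 cholinergic reads.

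Beta summed to 76.0 CPM in LOC (71.5 to 80.6) against 57.9 CPM in MOC (54.0 to 62.1), from 1.05 through a median of 45.0 to 245 CPM over LOC cells and from 0.690 through 36.9 to 318 CPM over MOC cells. The difference of means was 0.26 (5.38 ± 2.06 and 5.12 ± 1.91) and turned to -0.30 among libraries with at least 10 cholinergic reads. Gamma summed to 52.2 CPM in LOC (48.5 to 56.1) against 42.8 CPM in MOC (39.4 to 46.4), from 2.11 through 48.6 to 124 CPM over LOC cells and from 13.8 through 46.3 to 87.7 CPM over MOC cells. Its difference was 0.06 (5.25 ± 1.49 and 5.19 ± 0.910), or -0.03 on the authors' scaled values. In each cluster the groups overlapped and the difference was a small part of the spread over cells.

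The gamma sum varied least from cell to cell on the log2 scale, and alpha most, in both groups. Alpha was also the cluster in which single cells weighed most: LOC cell 5 gave 31.9% of the LOC reads and MOC cell 10 gave 40.0% of the MOC reads. For gamma the highest shares were 12.9% (LOC cell 13) and 23.5% (MOC cell 7).

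**Figure D5:**
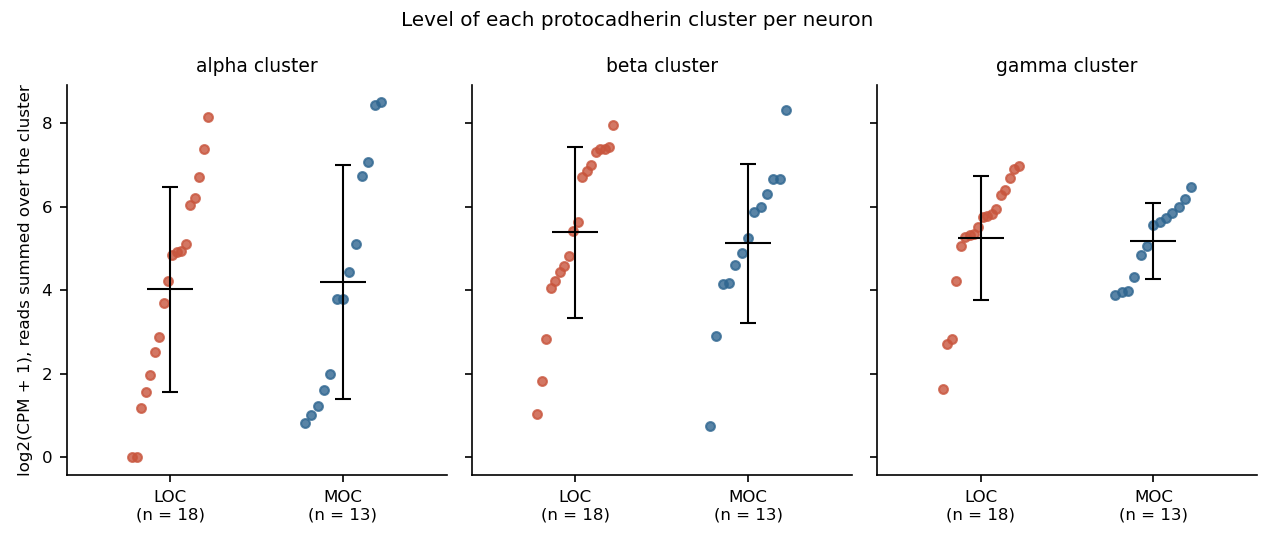
Summed CPM of the alpha, beta and gamma isoforms in each cell (vertical axis, log2(CPM + 1)), LOC and MOC side by side, with lines for the mean and SD over cells and points spread sideways in order of value. The groups overlap in each cluster, and gamma is the tightest.

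LOC and MOC were then compared isoform by isoform with a rule of size, since no test could be made. To meet it, a gene needs a summed CPM no less than 2 times the other group's, a mean log2(CPM + 1) higher by 1 or more, and reads in 25% or more of the higher group's cells. Genes read in 25% or more of either group's cells count as measured. Of the 28 measured isoforms 0 met it as higher in LOC, where 6.07% of the 17754 measured genes did, and 1 met it as higher in MOC, where 5.67% of them did. The median difference of the 28 isoforms was -0.02, with 12 of 28 (42.9%) above 0, against -0.07 and 45.7% for all measured genes.

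The isoform that met the rule was Pcdhb7, at 0.210 CPM in LOC (0.0434 to 0.615) against 5.79 CPM in MOC (4.59 to 7.22). It had 1 read in each of LOC cells 2, 6 and 13. In MOC it had 61 reads in cell 7, 6 in cell 10, 4 in each of cells 6 and 11, 3 in cell 12 and 1 in cell 13. The mean log2(CPM + 1) was 0.19 ± 0.44 and 1.24 ± 1.56, a difference of -1.05 that lies just past the limit, and it fell short of the rule when any of MOC cells 6, 7, 10, 11 or 12 was left out. The difference was -0.30 with a pseudocount of 10. It was -0.90 without LOC cell 14 and MOC cell 10, the libraries with most protocadherin reads in each group. The call was lost in both settings. With a pseudocount of 10, 2.08% of all measured genes were called higher in LOC and 1.18% higher in MOC.

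The promoters of the family are bound by CTCF and looped to distant enhancers by cohesin, and their use also depends on DNA methylation and on the repressors Smchd1 and Setdb1. Of 17 such regulators 16 were measured, and Wapl alone met the rule, higher in LOC, which is 6.25% of the 16 beside 6.07% of all measured genes. Wapl, which releases cohesin from chromatin, stood at 62.9 CPM in LOC (58.9 to 67.2, 16 of 18 cells) against 13.5 CPM in MOC (11.6 to 15.6, 11 of 13 cells), with mean log2(CPM + 1) of 4.62 ± 2.23 and 2.91 ± 1.90. LOC cell 2 gave 35.9% of the LOC reads.

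Apart from the rule for named genes, a few regulators are given for their role. Ctcf itself was at 27.5 CPM in LOC against 43.9 CPM in MOC, with a difference of means of -0.01, and the cohesin subunit Rad21 at 38.4 and 40.4 CPM with 0.44. Dnmt3b, a DNA methyltransferase that sets methylation at these promoters, was low, at 1.12 and 2.93 CPM, and was read in 8 LOC and 9 MOC cells. The regulators' median difference was 0.44, with 13 of 16 (81.2%) above 0, against -0.07 and 45.7% for all measured genes. Among libraries with at least 10 cholinergic reads Wapl kept its call (1.41), the cohesin partner Pds5a met the rule in LOC (1.52) and the cohesin subunit Smc1a in MOC (-1.21). In those libraries 8.47% of all measured genes met it in LOC and 6.9% in MOC.

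Of 27 genes that act with the proteins at the membrane or process and signal from them, 0 met the rule as higher in LOC and 1 as higher in MOC. Among all measured genes 6.07% met it in LOC and 5.67% in MOC. The median difference of the 27 was 0.04, against -0.07 for all measured genes. The gene higher in MOC was Axin1, a scaffold of the beta-catenin destruction complex. It stood at 6.03 CPM in LOC (4.82 to 7.45, 7 of 18 cells) against 22.4 CPM in MOC (19.9 to 25, 11 of 13 cells). Its mean log2(CPM + 1) was 1.35 ± 1.97 and 3.55 ± 1.98, and with a pseudocount of 10 the difference was -0.87 and the call was lost. Among libraries with at least 10 cholinergic reads Axin1 (-1.39) was joined by Cyfip1 (-1.87) and Nckap1 (-1.93), subunits of the WAVE complex that drives actin branching, all higher in MOC. In those libraries 6.9% of all measured genes met the rule in MOC. Without the most read library of each group, LOC cell 14 and MOC cell 10, the receptor Ret met the rule in LOC (1.33), and Ptk2b (-2.14) and Cyfip1 (-1.52) met it in MOC beside Axin1, where 5.51% and 5.81% of all measured genes did. Ptk2b, a focal adhesion kinase, had 97.0% of its LOC reads in LOC cell 14.

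Of the 21 non-clustered protocadherins and related cadherins 20 were measured, with a median difference of -0.13, against -0.07 for all measured genes. In each group 1 gene was higher by the rule, which is 5% of the 20. Among all measured genes 6.07% met it in LOC and 5.67% in MOC. Celsr3, an atypical cadherin of axon guidance, stood at 65.3 CPM in LOC (61.2 to 69.6, 17 of 18 cells) against 19.7 CPM in MOC (17.4 to 22.2, 12 of 13 cells), with means of 4.77 ± 2.49 and 3.48 ± 2.22. Pcdh17, a delta-type protocadherin, stood at 27.4 CPM in LOC (24.7 to 30.2, 16 of 18 cells) against 72.6 CPM in MOC (68.1 to 77.3, all 13 cells), with means of 3.69 ± 2.39 and 5.73 ± 1.35. With a pseudocount of 10 the difference of Celsr3 was 0.88 and its call was lost. Among libraries with at least 10 cholinergic reads Pcdh19 (-1.03) and Fat3 (-1.30) met the rule in MOC as well, where 6.9% of all measured genes did. The calls of Wapl, Axin1, Celsr3 and Pcdh17 held when any 1 cell was left out.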

How the data were processed

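The deposited data are raw counts for each gene and, from the authors as well, a normalized table on a TMM scale. STAR 2.5.2, limma, edgeR, DESeq2 and bcl2fastq are named, without their roles, per the submitters' processing notes, with builds GRCm38 and mm10. The sources used here do not name the counting tool, its annotation or its handling of shared exons. The deposited count table has 55440 entries, of which 19 are not mouse genes and were left out of totals. The deposited normalized signal, 20784 entries with column sums of 721736 to 1737008, is the raw count times 1 constant in 31 of 31 columns, and it was used for the choice of members and as an alternative scale. No 2 libraries were identical.

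CPM was computed on the total over mouse genes, and log2 values with a pseudocount of 1. Exon bases came from GENCODE M21 (GRCm38), which matched 55154 identifiers. It gives the identifier that the authors call Pcdha10 the name Pcdha11, and the authors' name was kept. Intervals are exact at 95%. Thinning used the exact expected number. Named genes were the C-type isoforms, the 10 isoforms read in most cells (ties by reads), those that met the size rule, each cell's leading isoform, and up to 4 genes a list that met the rule. The members, lists and rules were chosen with earlier results of these data known. Calculations used Python 3.11.15, numpy 2.4.6, pandas 2.3.3 and scipy 1.17.1, and were repeated with other read minimums, scales, pseudocounts and sets of libraries. They were tested on simulated data. For the size rule, the changed genes simulated had mean levels above that of any isoform and a wide difference. That simulation thus does not cover the rule at the levels of the isoforms.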

Additional observations from a re-analysis of the deposited data

How the results depend on the processing

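The read minimum decided how many isoforms a cell had: 11.9 in LOC and 13.9 in MOC at 1 read became 5.67 and 6.77 at 3 reads and 2.72 and 2.38 at 10 reads. The median isoform was read in 25.8% of cells at 1 read, 9.68% at 3 and 3.23% at 10. The Jaccard index within LOC fell to 0.073 at 3 reads and 0.022 at 10, within MOC it was 0.10 at 3 and 0.031 at 10, and between the groups 0.089 at 3 and 0.037 at 10. The number of isoforms higher in MOC, 1, became 0 with a pseudocount of 10 and 2 among libraries with at least 10 cholinergic reads. It became 0 without the library with most protocadherin reads in each group. With 1 cell left out at a time, which was chosen after seeing the data, as was the count over all 58 family genes, it was 0 to 2, and the number higher in LOC was 0 to 1. Among libraries with at least 10 cholinergic reads, 2 regulators were higher in LOC by the rule and 1 was higher in MOC, as were 3 signalling genes and 3 non-clustered genes, where 8.47% of all measured genes were higher in LOC and 6.9% in MOC. Without the most read library of each group, also chosen after seeing the data for the lists, 1 signalling gene met it in LOC and 3 in MOC. In that setting 5.51% of all measured genes met it in LOC and 5.81% in MOC. With a pseudocount of 10, 0 signalling genes met it in MOC and 0 non-clustered genes in LOC, where 1.18% and 2.08% of all measured genes did. The cause of these changes was not tested. No paired analysis was possible because the labels tie no cell to an animal and the cell numbers of LOC and MOC are only names. Depth limits the low end: an isoform at 0 reads may be present below about 1.14 to 8.42 CPM, the level of 3 counts, which is no firm ceiling. With 1 sample a group, the spread between animals is unknown.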
